A study of Mus musculus with 6 samples.

Results

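Semaphorins, plexins and neuropilins were examined in the cerebella of 14-day-old male mice, where 3 Galnt17 knockout (KO) animals were set against 3 wild-type (WT) animals. All protein-coding genes of a GRCm38 annotation whose symbol begins with Sema or Plxn followed by a digit or by a letter and a digit, together with Nrp1 and Nrp2, were taken, which gave 31 of the 55487 genes in the count files: 20 semaphorins, 9 plexins and 2 neuropilins. The KO mice (labelled Wbscr17KOKO, after the older name of the gene) were homozygous for the allele Galnt17tm1.1(KOMP)Vlcg, made from repository sperm in C57BL/6J females and then bred to F1 hybrids of C57BL/6J and C3H/He (B6C3), because the labels report no live homozygotes on C57BL/6. The WT mice are labelled B6C3, and no label says that they were littermates, so an effect of Galnt17 and a difference in strain background cannot be told apart. Each library was made from the cerebellum of 1 animal, and the labels name no treatment. Galnt17 encodes an enzyme of the family that starts mucin-type O-glycosylation.

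Semaphorins are guidance proteins that share an extracellular sema domain. Class 3 members are secreted, classes 4, 5 and 6 span the membrane, and Sema7a is held on the surface by a lipid anchor. Plexins are their receptors and act inside the cell on small GTPases, and the neuropilins bind most class 3 ligands on behalf of A-type plexins, which carry the signal. In the mouse cerebellum Sema6a and its receptor Plxna2 are known for guiding granule cell migration, and Plxnb2, with its ligands Sema4c and Sema4g, for the development of granule cell precursors.

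All 31 genes were measured, with 534 (Sema3b) to 32807 (Plxnb2) counts summed over the 6 libraries, and all passed the low-count filter. Libraries held 17111611 to 29840046 counts in genes. Galnt17 had 72, 80 and 63 counts in KO and 1119, 729 and 963 counts in WT (log2 fold change -3.94, SE 0.12, adjusted p = 6.18e-08), and the part of the gene that the allele removes was not given in the sources used here. Markers of mature granule cells summed to 4133 to 4379 CPM (counts scaled to library size with TMM factors) in KO and 3975 to 4336 CPM in WT, and none of the 8 was at 0 counts. Of the other markers, 10 of 14 for choroid plexus, 2 of 4 for unipolar brush cells, 1 of 7 for brainstem neurons and 1 of 3 for red blood cells were called lower, 2 of 10 for oligodendrocytes and 2 of 11 for Purkinje cells were called higher, and 0 were called for endothelial, mural, meningeal, precursor, astroglial, microglial and interneuron markers. The groups also differed in alignment. Unmapped reads made up 13.8% to 17.2% of reads in KO and 6.52% to 10.03% in WT. Multimapping reads made up 3.72% to 3.90% in KO and 4.09% to 4.29% in WT. Ambiguous reads made up 3.95% to 4.07% in KO and 4.35% to 4.44% in WT. None of these ranges overlapped, so these differences coincide with genotype, and their part in the values below was not tested. Across genes, the deviation of WT replicate 1 from the mean of the libraries had a Spearman correlation of -0.34 with GC content, against -0.07 to 0.18 in the other 5 libraries. Among the 31 members, the SD of log2 CPM was larger in WT for 26 (median 0.05 in KO and 0.12 in WT). The same share was not computed over all tested genes, so this is not shown to be particular to the family.

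No member passed the test between KO and WT. Of 31 members 0 were higher and 0 lower (edgeR's quasi-likelihood test, Benjamini-Hochberg adjusted p below 0.05 over all 18237 tested genes), where 1.66% of all tested genes were called, 0.784% higher and 0.872% lower. An unadjusted p under 0.05 was reached by 4 members that were higher and 3 that were lower, or 22.6%, against 17.6% of all tested genes. DESeq2 called 1 higher (Plxnb3) and 1 lower (Sema3b), and limma-voom called 0. The 3 KO values lay wholly apart from the 3 WT values for 11 members (35.5%), 3 of them higher and 8 lower in KO, and for 23.7% of all tested genes. Over all tested genes, 2095 lay apart and higher in KO and 2219 apart and lower. The median log2 fold change of the members was -0.05, and that of all tested genes was -0.01. For 28 of the 31 members the 95% interval of the fold change lay within 1.5-fold in either direction, which was so for 66.5% of all tested genes. The 3 exceptions, Sema3b, Sema3c and Sema3f, are all secreted ligands at low levels. Intervals widen at low counts, and the tested genes include some with fewer counts than any member. These shares are therefore not a like comparison and do not show that the family was more stable than other genes. Leaving out WT replicate 1 gave 3 higher members (Plxna3, Plxnb3 and Sema4g) and 2 lower ones (Sema3b and Sema6a), while all genes together then gave 959 higher and 962 lower calls, against 143 and 159 with all libraries. Without WT replicate 3, Plxnb3 alone was called, and leaving out any other library gave 0.

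**Figure D1:**
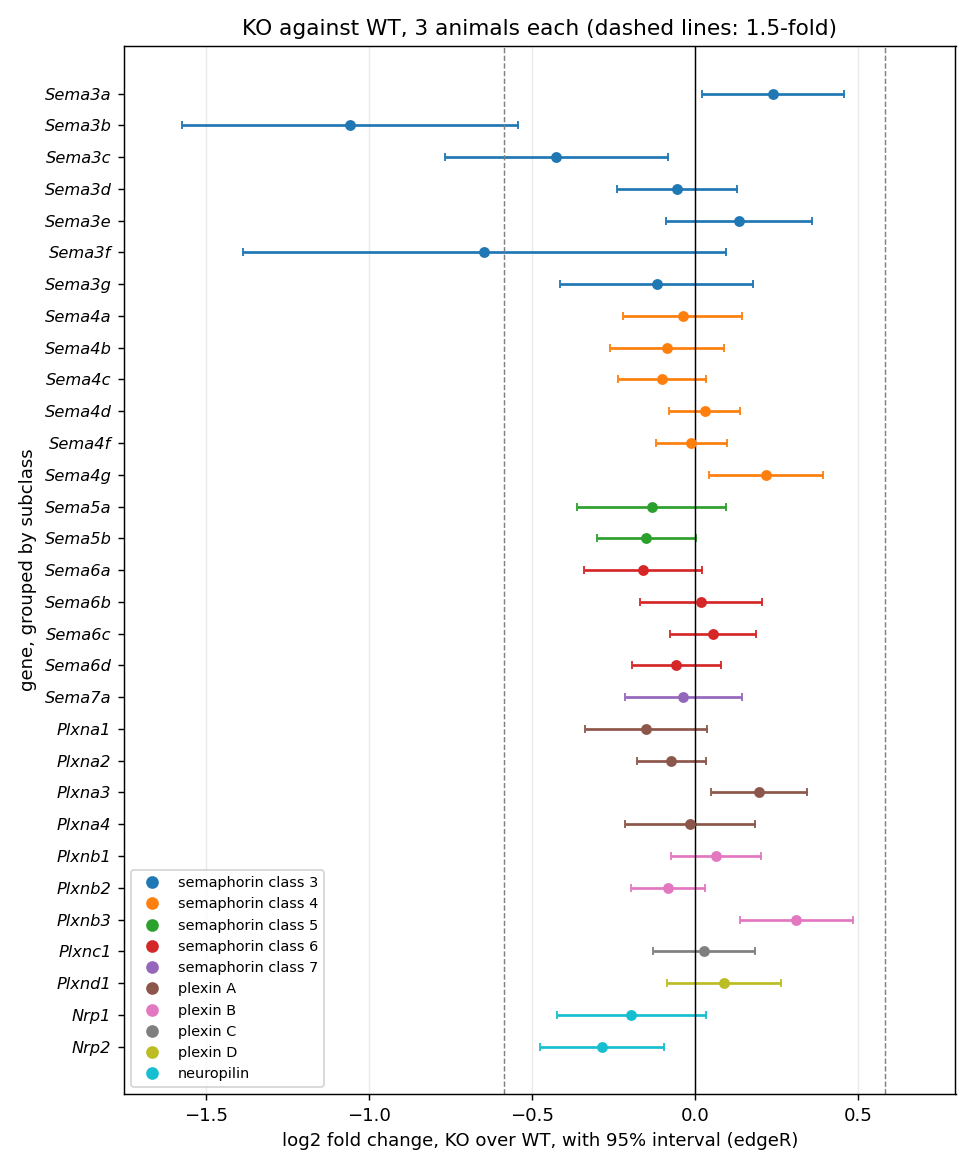
Log2 fold change of KO over WT (x axis) for the 31 genes, grouped and coloured by subclass, with 95% intervals from edgeR and dashed lines at 1.5-fold. All intervals but those of Sema3b, Sema3c and Sema3f lie between the dashed lines.

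Levels differed far more between members than between genotypes. To compare genes, CPM was divided by the length of the merged exons in kb, untranslated ends included. On that scale the mean over all 6 libraries spanned 43.1-fold, with Sema7a highest and Sema3b lowest. Sema7a stood at 37.3 ± 1.55 in KO and 38.3 ± 4.61 CPM per kb in WT (SD, n = 3 each, here and below), and Plxnb2, the most abundant receptor, at 30.6 ± 0.973 in KO and 32.4 ± 0.546 CPM per kb in WT. Next came a run of membrane-bound ligands, Sema4d, Sema4g, Sema6b, Sema6d, Sema4c and Sema4f, between 21.04 and 15.5 CPM per kb over all libraries, in which each gene overlapped its neighbour. Secreted class 3 ligands and the neuropilins filled the bottom of the order, from Sema3d at 2.25 ± 0.158 in KO and 2.34 ± 0.0719 CPM per kb in WT down to Sema3b at 0.57 ± 0.104 in KO and 1.19 ± 0.33 CPM per kb in WT. In the whole order, 23 of 30 neighbouring pairs had overlapping values. The 7 gaps fell below Sema7a, Plxnb2, Sema4f, Plxnb1, Plxna2, Sema4a and Sema3a.

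Summed by class, the 7 class 3 ligands made up 5.24% of all semaphorin transcript per kb in KO and 5.86% in WT. Class 4 with 6 genes held 41.4% in KO and 39.9% in WT, class 6 with 4 genes 30.4% in KO and 30.7% in WT, and Sema7a alone 19.0% in KO and 19.3% in WT. Among the receptors, plexins of type B held 51.4% of the plexin sum in both groups, and those of type A 34.0% in KO and 34.6% in WT. The summed level of the 9 plexins was 97.2 ± 0.751 in KO and 96.9 ± 2.72 CPM per kb in WT, and that of the 20 semaphorins was 196 ± 4.83 in KO and 199 ± 9.0 CPM per kb in WT. Both sums overlapped between the groups. The 2 neuropilins together stood at 2.60 ± 0.0454 in KO and 3.07 ± 0.222 CPM per kb in WT, with no overlap.

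**Figure D2:**
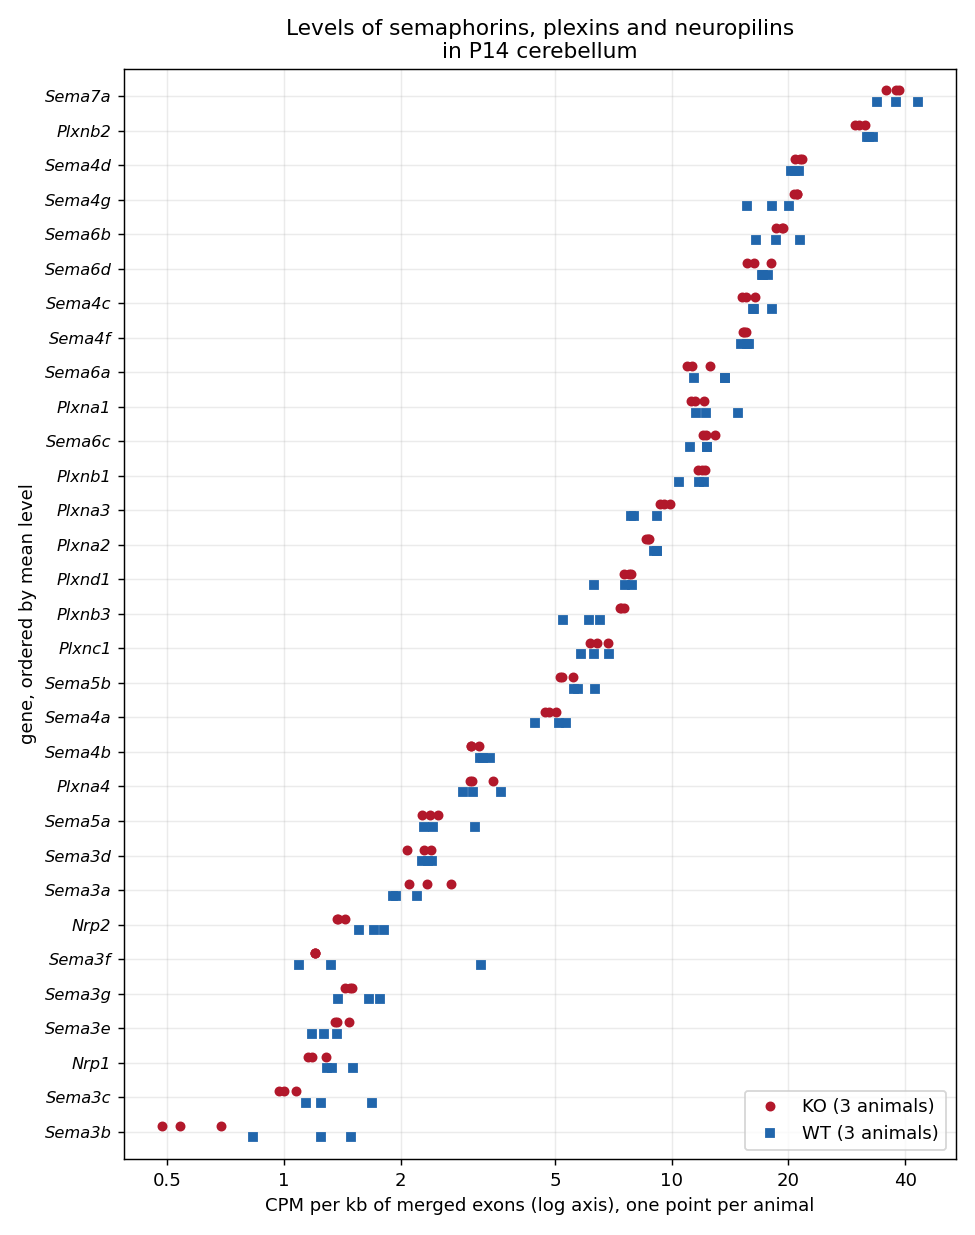
CPM per kb of merged exons (log axis) of each gene, with 1 point per animal, KO circles above WT squares, and genes ordered by their mean over the 6 libraries. Sema7a (37.3 in KO and 38.3 in WT) and Plxnb2 (30.6 in KO and 32.4 in WT) lead, while class 3 ligands and neuropilins lie at the bottom.

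Among the secreted ligands, Sema3b had the largest difference. Sema3b, a class 3 ligand known to act through neuropilins (ENSMUSG00000057969, chr9:107597674-107609229, minus strand, GRCm38), had 69, 60 and 66 counts in KO and 96, 121 and 122 counts in WT. These counts gave 2.31, 2.58 and 3.28 CPM in KO and 3.98, 7.10 and 5.93 CPM in WT. All KO animals were below all WT animals, and WT replicate 1 was the WT animal nearest to them. The mean was 2.72 ± 0.498 in KO and 5.67 ± 1.58 CPM in WT, 2.08-fold lower in the KO animals (log2 fold change -1.06, 95% interval -1.57 to -0.54, SE 0.23), and it missed the threshold in edgeR (adjusted p = 0.0547). The adjusted p was 0.00398 in DESeq2, 0.0708 in limma-voom and 0.0497 with a correction for GC content, and 0.00371 without WT replicate 1 but up to 0.23 without another library.

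Choroid plexus markers were lower in the same KO libraries. Of 14 markers of this epithelium, which secretes cerebrospinal fluid, 10 were called lower and 0 higher, and none was at 0 counts over the 6 libraries. Their summed level was 47.7, 279.8 and 505 CPM in KO and 1207, 2019 and 2160 CPM in WT. KO replicate 1 was lowest and WT replicate 1 was the lowest of the WT animals, as for Sema3b. WT replicate 3 was highest for the summed level, whereas WT replicate 2 was highest for Sema3b. In every animal but KO replicate 1 most of that sum was Ttr, which encodes a thyroid hormone carrier and was not called itself (4.26, 220.1 and 431 CPM in KO and 1096, 1861 and 1995 CPM in WT, adjusted p = 0.154). The other 13 markers summed to 43.5, 59.7 and 74.5 CPM in KO and 112, 158 and 165 CPM in WT, again with no overlap. That sum includes Otx2, which was not called (28.4, 29.9 and 32.2 CPM in KO and 29.9, 34.1 and 30.3 CPM in WT, adjusted p = 0.724). The part of choroid plexus in the Sema3b values was not tested, and in bulk tissue fewer cells of a type and less RNA per cell cannot be told apart.

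The gene next to Sema3b in the family lies close by. Sema3f, a repellent ligand that binds Nrp2, lies on the same strand (chr9:107681500-107710475), with a gap of 72.3 kb between the 2 genes. It stood at 6.23, 6.23 and 6.26 CPM in KO and at 5.67, 6.86 and 16.8 CPM in WT. WT replicates 1 and 2 lay on either side of the KO animals, and only WT replicate 3 was high. The log2 fold change was -0.65 (SE 0.33, adjusted p = 0.343), and it was 0.00 without WT replicate 3. That animal also had the highest summed level of 7 brainstem neuron markers, which ran from 90.7 to 94.9 CPM in KO and were 94.5, 124 and 162 CPM in WT replicates 1, 2 and 3. Of these markers 4 were tested, 3 with a negative and 1 with a positive log2 fold change (-1.58 to 0.37), and 1 (Slc6a5) was called lower. None of the 7 was at 0 counts over the 6 libraries, and their part in the Sema3f values was not tested. Between Sema3b and Sema3f lie 3 protein-coding genes, of which Gnai2 and Slc38a3 were tested and not called (log2 fold changes -0.11 and -0.12, adjusted p = 0.325 and 0.431).

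**Figure D3:**
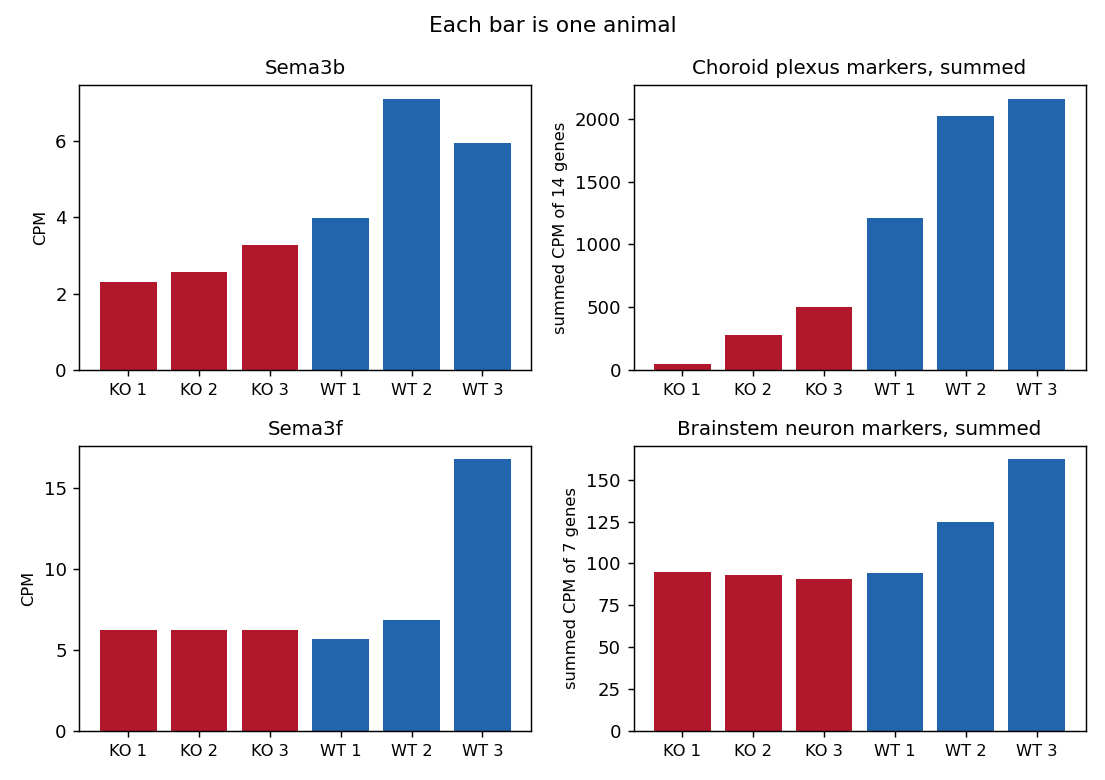
CPM of Sema3b and Sema3f and summed CPM of 14 choroid plexus and 7 brainstem neuron markers, with 1 bar per animal and KO left of WT. Sema3b and the choroid plexus sum are lower in every KO animal, whereas Sema3f is high in WT replicate 3 alone (16.8 CPM).

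The other class 3 ligands went in both directions. Sema3a, the founding repellent ligand of Nrp1, stood at 37.4, 29.2 and 32.4 CPM in KO and 26.5, 30.6 and 27.0 CPM in WT. KO replicate 2 fell within the WT values, so the groups overlapped (log2 fold change 0.24, SE 0.10, adjusted p = 0.25). Sema3c was at 7.14, 6.92 and 7.65 CPM in KO and 8.86, 8.15 and 12.1 CPM in WT. All KO animals were below all WT animals, yet WT replicate 3 set much of the gap, and the log2 fold change was -0.42 (SE 0.15, adjusted p = 0.197) with it and -0.24 without it. Sema3e, which binds Plxnd1 without a neuropilin, was at 13.0 ± 0.586 in KO and 11.8 ± 0.858 CPM in WT (adjusted p = 0.509). Sema3d (19.4 ± 1.36 in KO and 20.1 ± 0.618 CPM in WT) and Sema3g (6.68 ± 0.136 in KO and 7.26 ± 0.909 CPM in WT) had overlapping groups, with adjusted p values of 0.769 and 0.683. Sema3a, Sema3c, Sema3d and Sema3e share chromosome 5 with Galnt17 but lie 113 to 118 Mb from it, and their log2 fold changes had both signs.

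Class 4 ligands, which signal mainly through B-type plexins, had narrow intervals. Sema4g had 179.6, 182 and 182 CPM in KO and 173.6, 157 and 136 CPM in WT. The KO animals were nearly identical and above all WT animals, of which WT replicate 3 was lowest. Its level was 1.16-fold higher in KO (log2 fold change 0.22, SE 0.08). Its adjusted p was 0.195 with all libraries and 0.0142 without WT replicate 1, but up to 0.451 without another library. Sema4d, the ligand of Plxnb1, was at 163 ± 3.27 in KO and 159.9 ± 3.42 CPM in WT, a fold of 1.02 with an interval of 0.946 to 1.10. Sema4f gave 0.993-fold (interval 0.921 to 1.07) and Sema4c, the other named ligand of Plxnb2, gave 0.932-fold (interval 0.849 to 1.02). Sema4a was at 26.2 ± 0.848 in KO and 26.8 ± 2.48 CPM in WT, and Sema4b at 17.4 ± 0.479 in KO and 18.5 ± 0.575 CPM in WT. Sema4b did not overlap between the groups, but its fold was only 0.942 (adjusted p = 0.607).

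The thrombospondin-repeat ligands of class 5 were both lower on average without passing. Sema5b had 39.3, 36.4 and 36.9 CPM in KO and 39.6, 40.6 and 44.8 CPM in WT. The highest KO and the lowest WT animal nearly met, and the log2 fold change was -0.15 (SE 0.07, adjusted p = 0.292). Sema5a was at 44.5 ± 2.07 in KO and 48.8 ± 8.24 CPM in WT (adjusted p = 0.536), with WT replicate 3 highest at 58.2 CPM.

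Sema6a, the class 6 ligand of granule cell migration, was at 109.9, 99.1 and 95.9 CPM in KO and 99.9, 120.4 and 121 CPM in WT. KO replicate 1 and WT replicate 1 crossed over, and the log2 fold change was -0.16 (SE 0.08, adjusted p = 0.341). The adjusted p was 0.0319 without WT replicate 1 but up to 0.662 without another library. Its receptor Plxna2 was at 147, 149 and 150.4 CPM in KO and 157.5, 157.6 and 155 CPM in WT. Those groups did not overlap, but the fold was 0.952 with an interval of 0.884 to 1.02 (adjusted p = 0.463). Per kb the ligand and this receptor stood at 11.6 and 8.67 CPM in KO and 12.9 and 9.12 CPM in WT. Sema6b, Sema6c and Sema6d gave folds of 1.01, 1.04 and 0.962, with intervals that reached no further than 0.875 and 1.15. Sema7a, which binds Plxnc1 and integrins, was at 125, 127 and 117 CPM in KO and 112, 125 and 142 CPM in WT, with the KO animals inside the WT range (adjusted p = 0.854). Plxnc1 was at 54.0 ± 2.82 in KO and 52.9 ± 4.36 CPM in WT (adjusted p = 0.872).

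Plxnb3, a B-type plexin known from oligodendrocytes (ENSMUSG00000031385, chrX:73757090-73772514, plus strand), had the largest difference among receptors. It stood at 49.0, 47.7 and 48.0 CPM in KO and 39.8, 34.0 and 42.5 CPM in WT, with all KO animals above all WT animals. The level was 1.24-fold higher in KO (log2 fold change 0.31, SE 0.08, 95% interval 0.14 to 0.49) and missed the threshold (adjusted p = 0.0828). Leaving out 1 library moved the edgeR adjusted p between 0.0275 and 0.277, and DESeq2 on all libraries gave an adjusted p of 0.0443. Of 10 oligodendrocyte markers 2, Ermn and Cldn11, were called higher and 0 lower, none was at 0 counts, and their summed level was 13857 to 14522 CPM in KO and 12559 to 12712 CPM in WT. The part of these cells in the Plxnb3 values was not tested.

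Nrp2, the co-receptor of Sema3f (ENSMUSG00000025969, chr1:62703285-62818695, plus strand), was at 16.3, 17.02 and 16.2 CPM in KO and 20.3, 18.5 and 21.5 CPM in WT. All KO animals were lower, 1.22-fold on average (log2 fold change -0.28, SE 0.09, 95% interval -0.47 to -0.09), and the adjusted p was 0.133 and stayed above 0.05 whichever library was left out (0.0886 to 0.359). Nrp1, the co-receptor of Sema3a and also of vascular endothelial growth factor, had 11.5, 11.3 and 12.5 CPM in KO and 12.6, 13.0 and 14.7 CPM in WT. Its groups came close without crossing (log2 fold change -0.20, SE 0.10, adjusted p = 0.352). Endothelial cells also express neuropilins. Of 10 endothelial markers 0 were called in either direction and 1 had an unadjusted p under 0.05, and their sum was 239.9 to 267 CPM in KO and 220.2 to 259 CPM in WT. Any part of endothelial cells in the neuropilin values was not tested.

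The promoters of Plxnb3 and Nrp2 are shown because, of the 3 members with the smallest unadjusted p, these 2 have an entry in the RefSeq promoter table (GRCm38.p6, 250 bases before to 50 bases after an annotated start, plus strand, chrX:73756853-73757152 and chr1:62703067-62703366). Capitals mark each CG dinucleotide.
Plxnb3 promoter: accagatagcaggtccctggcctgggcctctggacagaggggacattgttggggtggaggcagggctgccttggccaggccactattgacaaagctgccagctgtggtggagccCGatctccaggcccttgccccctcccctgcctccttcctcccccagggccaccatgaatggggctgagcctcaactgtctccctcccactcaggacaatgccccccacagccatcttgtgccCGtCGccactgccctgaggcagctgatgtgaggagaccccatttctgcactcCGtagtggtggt
Nrp2 promoter: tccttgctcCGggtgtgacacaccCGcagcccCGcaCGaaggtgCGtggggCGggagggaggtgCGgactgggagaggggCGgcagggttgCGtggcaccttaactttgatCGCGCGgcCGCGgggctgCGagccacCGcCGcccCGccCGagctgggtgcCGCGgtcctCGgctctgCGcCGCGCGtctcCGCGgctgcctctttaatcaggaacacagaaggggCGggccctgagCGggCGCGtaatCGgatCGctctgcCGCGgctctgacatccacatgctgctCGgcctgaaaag
The Plxnb3 sequence holds 4 CG dinucleotides and that of Nrp2 holds 37. The motif GGGCGG, searched on both strands, occurs 0 times in the first and 5 times in the second, and 35.7% of all 32851 promoters in the table hold it. Of the members 26 were used, with 37 promoters, 27 of which hold the motif (73.0%). Plxna1, Plxna4, Sema3b, Sema3f and Sema6a either had no entry or were not used, so the member values leave them out. Member promoters held 2 to 42 CG dinucleotides with a median of 15, beside a median of 7 over all promoters. A match of letters is no evidence of binding.

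The remaining plexins differed little between groups. Plxna3, the other member on the X chromosome, was at 73.7, 75.1 and 77.8 CPM in KO and 72.3, 63.1 and 61.9 CPM in WT. KO replicate 1 and WT replicate 1 lay close, but no values crossed. The KO level was 1.15-fold higher (a log2 fold change of 0.20 with SE 0.07), with adjusted p = 0.167. The adjusted p was 0.0118 without WT replicate 1 but up to 0.434 without another library. Plxnb3 and Plxna3 lie 557 kb apart with 23 protein-coding genes between them, of which 19 were tested, 0 were called, 4 (21.1%, beside 17.6% of all tested genes) had an unadjusted p under 0.05, and 8 had a positive and 11 a negative log2 fold change. Plxnb2, the most abundant plexin, was at 244, 229 and 235 CPM in KO and 255, 249 and 246 CPM in WT. The groups did not overlap, but the fold was 0.944 with an interval of 0.873 to 1.02 (adjusted p = 0.43). Plxna1, a partner of both neuropilins, was at 105 ± 3.96 in KO and 117 ± 15.4 CPM in WT (adjusted p = 0.379), with WT replicate 3 high at 134 CPM. Plxna4 gave 0.990-fold (interval 0.863 to 1.14), Plxnb1 1.05-fold (interval 0.950 to 1.15) and Plxnd1, the receptor of Sema3e, 1.06-fold (interval 0.944 to 1.20). Reads were counted without regard to strand, and 10.7% of the exon bases of Plxna1 and 7.27% of those of Sema4c overlap a gene on the opposite strand, so values of these 2 genes are less certain. Overlap with other genes was at most 2.68% in the other members.

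**Figure D4:**
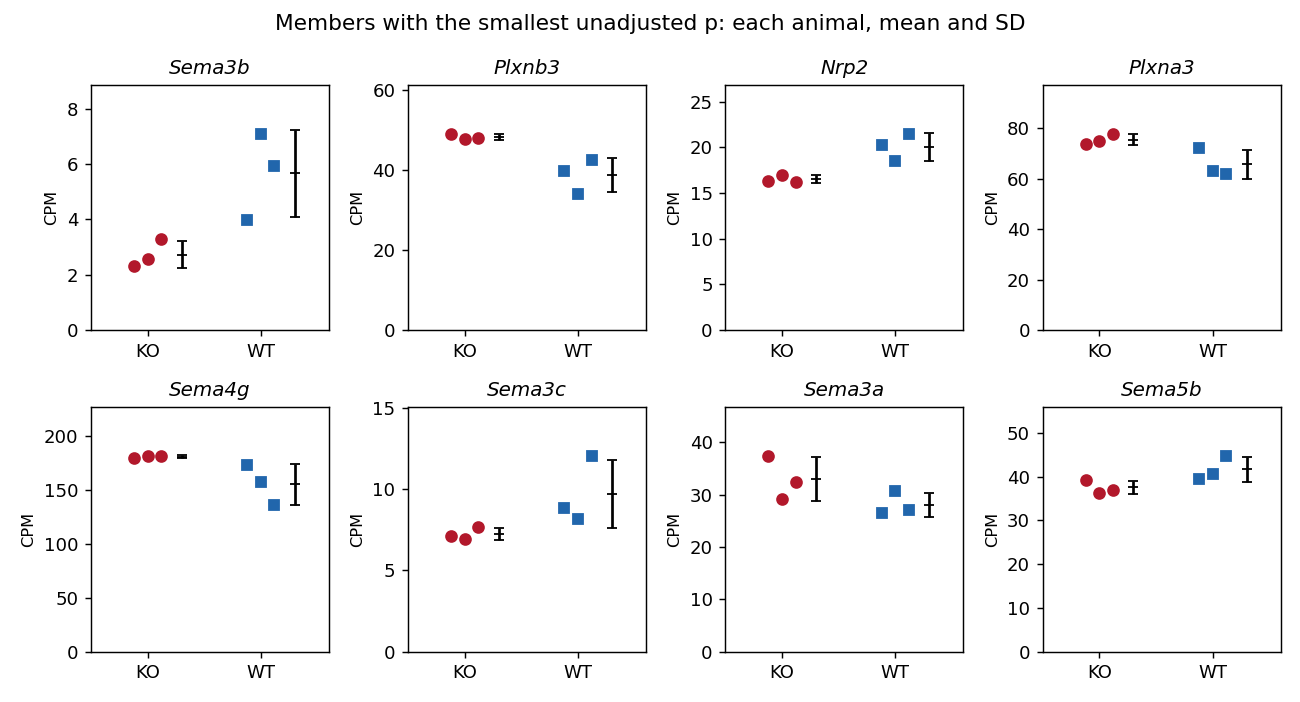
CPM of the 8 members with the smallest unadjusted p, with 1 point per animal and the mean and SD beside them, KO left of WT and each axis starting at 0. Groups lie apart for all but Sema3a, and the KO animals are tightly grouped in Plxnb3 (49.0, 47.7 and 48.0 CPM) and Sema4g.

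Partners of the family outside the 3 gene groups held no call either. Of 20 co-receptors and other ligands of neuropilins and plexins, 0 were called in edgeR, DESeq2 or limma-voom, 0 had a positive and 1 a negative log2 fold change at an unadjusted p under 0.05 (5.0% of the list, beside 17.6% of all tested genes), with -0.05 as the median log2 fold change. The adhesion molecule gene L1cam, whose product joins Nrp1 in the Sema3a receptor, was at 168 ± 7.23 in KO and 195 ± 15.3 CPM in WT (log2 fold change -0.21, SE 0.07, adjusted p = 0.139). Its relative Nrcam was at 209 ± 5.10 in KO and 229.6 ± 20.4 CPM in WT (adjusted p = 0.327), and the integrin subunit gene Itga1 at 16.8 ± 0.734 in KO and 14.6 ± 2.67 CPM in WT (adjusted p = 0.441).

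Of 38 intracellular effectors, 0 were called by the same tools, 9 had an unadjusted p under 0.05 (1 higher and 8 lower in KO, 23.7% of the list, beside 17.6% of all tested genes), and the 38 genes had a median log2 fold change of -0.06. Over all tested genes, 1562 were higher and 1639 lower at an unadjusted edgeR p under 0.05, and the median log2 fold change was -0.01. Of the effectors described here, Arhgap35, which encodes a GTPase-activating protein, was at 175 ± 5.18 in KO and 200.5 ± 7.66 CPM in WT (log2 fold change -0.19, SE 0.05, adjusted p = 0.109). The collapsin response mediator gene Dpysl3 was at 172 ± 8.10 in KO and 199 ± 19.1 CPM in WT (log2 fold change -0.21, SE 0.07, adjusted p = 0.185). Without WT replicate 1, 2 partners (Flna and Mical2) were called higher and 6 lower, among them Arhgap35, Crmp1, Dpysl3, Dpysl5 and L1cam. Leaving out any other library gave 0. Markers of granule cell precursors and dividing cells, 9 genes with 0 calls, had a median log2 fold change of -0.22 and summed to 309.6 to 379.6 CPM in KO and 359 to 459 CPM in WT, and their part in these values was not tested.

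**Figure D5:**
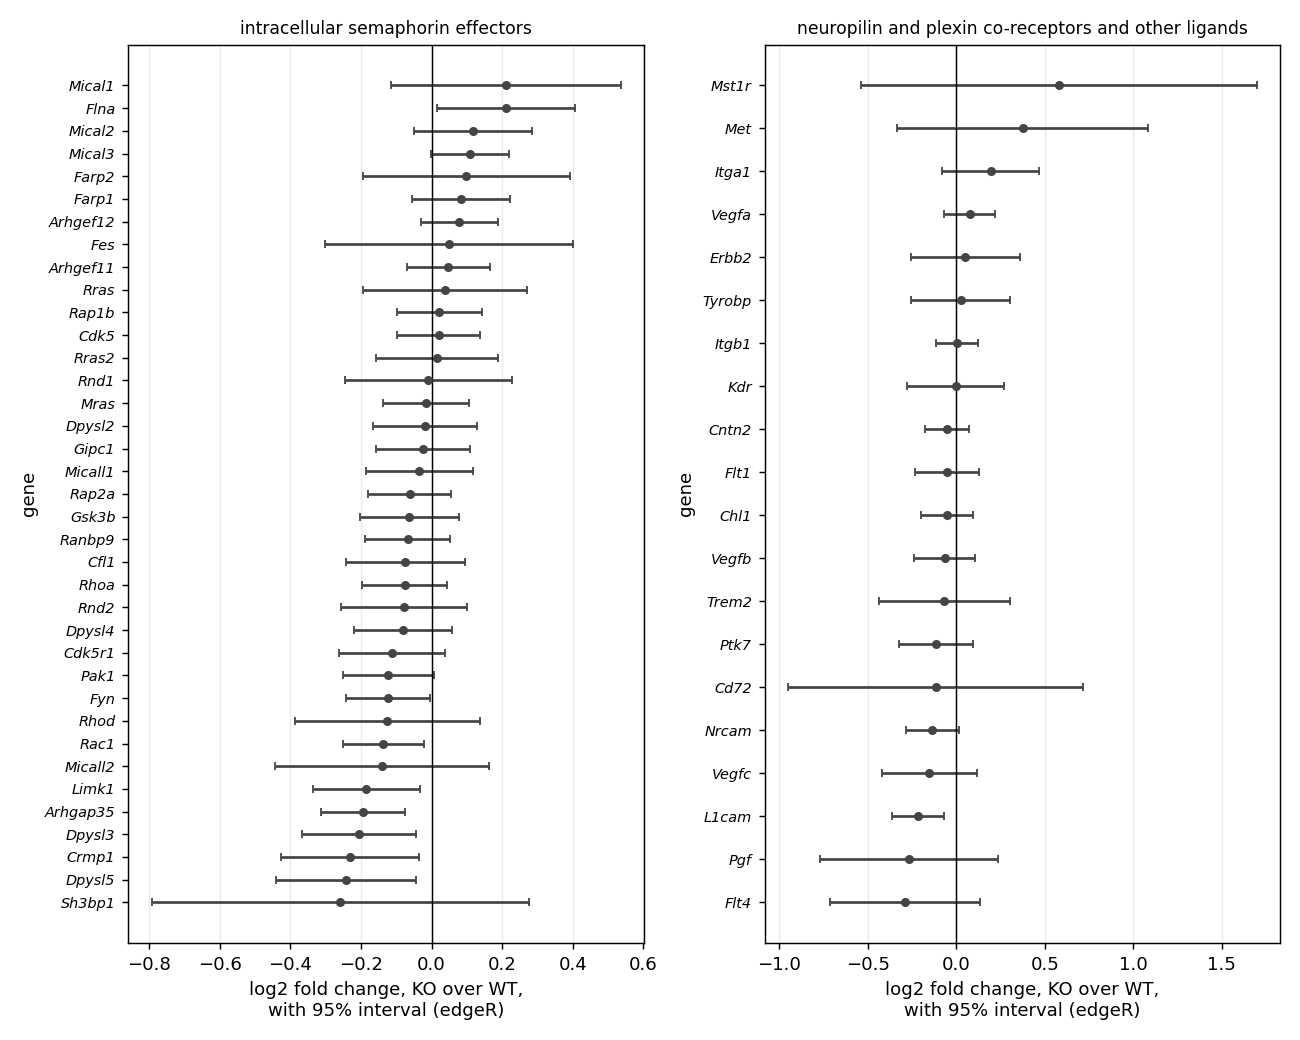
Log2 fold change of KO over WT with 95% intervals from edgeR for 37 of the 38 intracellular effectors (left) and 20 co-receptors and other ligands (right), ordered by value. Most effectors lie left of 0 (median -0.06, against -0.01 over all tested genes), and no gene passed the adjusted threshold.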

How the data were processed

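The labels describe RNA from cerebella of P14 male mice, prepared with Trizol, DNase I and Illumina TruSeq kits and read as 150-base pairs. Whole-number counts per gene were deposited, 1 table per library, and per the submitters' processing notes the tools were STAR 2.7.5a and edgeR 3.12, with mm10 and GRCm38 as builds. How reads were trimmed or filtered was not given in the sources used here. Of the 3 count columns, the unstranded one was used, since the strand columns were even (49.9% to 50.0% in the first), and the 4 lines that name no gene were left out. They held 6.52% to 17.2% (unmapped), 3.72% to 4.29% (multimapping), 6.94% to 9.30% (no feature) and 3.95% to 4.44% (ambiguous) of reads.

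Symbols, exons and positions came from GENCODE M21 (GRCm38), which matched 55227 of 55487 identifiers. The files carry the name of annotation release 102. The fit across all genes used edgeR 4.0.16 in R 4.3.3 (default filter with minimum count 10, TMM, quasi-likelihood F test, two-sided), without covariates, with adjustment over 18237 genes. SEs and 95% intervals come from the fold change and the F statistic and reflect the spread between animals. The biological coefficient of variation was 8.52%. Alternatives were DESeq2 1.42.0, limma-voom 3.58.1, other scalings and filters, a loess offset on transcript GC content (available for 99.9% of tested genes) and leaving out each library. The choroid plexus sum without Ttr was added after the values had been seen. The edgeR steps were tested on counts simulated from the fitted means and dispersions. Those counts held no GC or alignment differences between libraries, so the test does not cover them.

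The members and lists were chosen with earlier results of these data known. Every member is named, with values in full for the 8 with the smallest unadjusted p, and for partners the 3 with the smallest p of each list. The effector with the smallest p is not reported here, and those described rank behind it. Values of further genes were chosen after they had been seen (Sema3f, Sema6a, Plxna2, Plxnb2, Sema7a and Nrp1 by library, and neighbours by position). The labels share no replicate number between groups, so replicate numbers follow accession order and serve as names.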

Additional observations from a re-analysis of the deposited data

How the results depend on the processing

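Of 403 log2 fold changes of members under 13 alternatives, 374 kept their sign and their side of the threshold, 13 passed it where the reported value had not, and 16 changed sign. The family had 0 calls in each direction as reported. Without a low-count filter, 2 members were higher (Plxnb3 and Sema4g) and 2 lower (Sema3b and Sema3f), and of the partners 1 was higher (Flna) and 4 lower; all genes then gave 803 higher and 820 lower calls. DESeq2 called 1 higher and 1 lower member, and the GC correction 1 lower member (Sema3b). Over all genes DESeq2 made 276 higher and 292 lower calls, against 143 and 159 as reported. Leaving out 1 library gave 28 to 959 higher and 53 to 962 lower calls over all genes. The cause of these changes was not tested. Leaving out 1 library gave 0 to 3 higher and 0 to 2 lower members, and 0 to 2 higher and 0 to 6 lower partners, with the highest numbers without WT replicate 1 in each case. Of the members 25 were called under no alternative. DESeq2's size factors, upper-quartile factors, limma-voom and a stricter filter gave 0 calls among members and partners.

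Sign changes fell in 10 members. With upper-quartile factors the log2 fold change of Plxna4 was 0.0059 (as reported, -0.01) and that of Sema4f 0.0094 (as reported, -0.01), and with the GC correction that of Plxna4 was 0.023. Leaving out each library gave ranges of -0.077 to 0.089 for Plxna4, -0.024 to 0.089 for Plxnc1, -0.0037 to 0.155 for Plxnd1, -0.10 to 7.8e-05 for Sema3d and -0.939 to 0.0047 for Sema3f. The ranges were -0.104 to 0.016 for Sema4a, -0.031 to 0.0057 for Sema4f, -0.221 to 0.019 for Sema5a, -0.072 to 0.129 for Sema6b and -0.119 to 0.062 for Sema7a. With 3 animals per group, an adjusted p above 0.05 does not show equal levels, and the 95% intervals give the sizes these data allow.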
